A study of Mus musculus with 12 samples.

Results

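Troponin and tropomyosin form the calcium switch of the muscle thin filament, and 9 of their genes are described here out of the 56162 features in the deposited tables. They were taken by gene symbol and not by any measured value: Tnnt1 and Tnnt3 (slow and fast troponin T), Tnni1 and Tnni2 (slow and fast troponin I), Tnnc1 and Tnnc2 (slow and fast troponin C), and the tropomyosins Tpm1, Tpm2 and Tpm3. RNA sequencing was done on 12 libraries, 3 in each of 4 groups: type I myofibers of trained mice, type I myofibers of untrained mice, type IIb myofibers of trained mice and type IIb myofibers of untrained mice. All mice were male C57BL/6J with a labelled age of 8 weeks, and the labels do not say whether that is the age before or after training. Trained mice ran on a treadmill on 5 days a week over 6 weeks, for 60 min at 12 to 16 m/min, and were killed 3 days after their last run. Type I fibres came from soleus, a slow postural muscle of the hindlimb, after 90 min in collagenase. Type IIb fibres came from extensor digitorum longus, a fast hindlimb muscle, after 60 min. Fibre type, muscle and digestion time therefore cannot be told apart. Each fibre was divided, and a piece of it served to read its myosin heavy chain protein, and the remainder was lysed for sequencing. The labels name no separate mice and no number of fibres per library, so a p-value here speaks to the spread of these libraries, which may be technical. Fewer fibre pieces of a kind and less RNA per piece cannot be told apart either.

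In resting muscle, troponin I holds the thin filament switched off, and troponin T ties the troponin complex to tropomyosin, which lies along actin. When calcium binds troponin C, the inhibition by troponin I is released, tropomyosin shifts on actin, and myosin can bind. Slow and fast skeletal fibres build the complex from different genes: Tnnt1, Tnni1 and Tnnc1 in slow fibres, where Tnnc1 is shared with the heart, and Tnnt3, Tnni2 and Tnnc2 in fast fibres. Among the tropomyosins, Tpm1 gives the alpha chain of fast fibres, Tpm3 the alpha chain of slow fibres, and Tpm2 the beta chain that pairs with either.

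Library totals ranged from 8026397 to 24995288 counts, and the 9 genes took 3.03% to 8.24% of all counts. Genes with at least 10 counts numbered 6082 to 14428 in type I and 3636 to 10932 in type IIb libraries, and mitochondrial genes took 5.86% to 34.7% of counts in type I and 24.6% to 29.3% in type IIb libraries. The part of these differences in the results between fibre types was not tested. Among 4 adult myosin heavy chain genes (Myh7, Myh2, Myh1, Myh4), the slow gene Myh7 took 80.5% to 99.8% of the counts in type I libraries and the type IIb gene Myh4 took 99.7% to 100.0% in type IIb libraries. Library 1 of the type I untrained group stood apart, with 10.5% Myh2 and 8.92% Myh1, the heavy chains of type IIa and type IIx fibres, and with 1620 CPM (counts scaled to the library total) summed over 5 erythroid markers. Summed levels of 10 endothelial markers ran from 1.24 to 1770 CPM in type I and from 0 to 272 CPM in type IIb libraries, with 10 of 10 at 0 in all 3 type IIb untrained libraries. The highest endothelial sums were in type I untrained libraries 1 and 3 (1770 and 850 CPM) and in type IIb trained library 3 (272 CPM). Fibroblast markers summed to 25.4 to 9330 CPM in type I, with the highest value in type I untrained library 3, and to 0.103 to 305 CPM in type IIb libraries. Mural, satellite cell and cardiac muscle markers summed to 6.9 to 1090, 0.103 to 90.5 and 0 to 92.6 CPM in type I libraries, and to 0 to 132, 0 to 58.3 and 0 to 11.5 CPM in type IIb libraries.

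The sequences before the start sites of Tnnt1, Tnni1, Tnnc1, Tpm3 and Tpm1 are shown here because these 5 genes passed the test between fibre types described further on. The RefSeq promoter table (build GRCm38.p6, which is mm10) held 9 windows of 300 bases, 250 before to 50 after a start, for 7 of the 9 members, with no entry for Tnnt3 and Tnni2. The 250 bases before the start are printed 5′ to 3′ on the gene's strand for Tnnt1 (chr7:4515976-4516225, minus strand), Tnni1 (chr1:135799171-135799420, plus strand), Tnnc1 (chr14:31208062-31208311, plus strand), Tpm3 (chr3:90072401-90072650, plus strand) and Tpm1 (chr9:67049214-67049463, minus strand). For Tnni1 and Tpm3, which have another start in the table, the window with the lower coordinates is given. Capitals mark each match, on either strand, to any of 3 motifs. The first is TATAAA, the letters of a TATA box. The second is the binding motif of TEAD factors, spelled CATTCC, which reads GGAATG when on the opposite strand. The third is a core of sites of the muscle factor MEF2, spelled TAAAAATA, which reads TATTTTTA when on the opposite strand.
Tnnt1: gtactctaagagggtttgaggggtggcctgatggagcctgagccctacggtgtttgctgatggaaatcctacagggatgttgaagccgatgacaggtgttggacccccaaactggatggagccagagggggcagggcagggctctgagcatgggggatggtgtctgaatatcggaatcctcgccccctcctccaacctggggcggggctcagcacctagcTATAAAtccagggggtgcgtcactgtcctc
Tnni1: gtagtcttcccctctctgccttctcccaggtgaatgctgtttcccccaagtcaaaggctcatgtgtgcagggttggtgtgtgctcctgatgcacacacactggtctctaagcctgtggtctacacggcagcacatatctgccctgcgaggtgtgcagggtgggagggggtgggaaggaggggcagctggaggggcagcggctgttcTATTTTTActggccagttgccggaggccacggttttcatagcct
Tnnc1: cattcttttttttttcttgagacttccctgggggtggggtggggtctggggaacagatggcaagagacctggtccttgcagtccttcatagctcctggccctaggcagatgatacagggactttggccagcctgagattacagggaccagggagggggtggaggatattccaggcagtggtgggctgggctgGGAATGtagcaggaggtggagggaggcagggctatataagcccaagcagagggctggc
Tpm3: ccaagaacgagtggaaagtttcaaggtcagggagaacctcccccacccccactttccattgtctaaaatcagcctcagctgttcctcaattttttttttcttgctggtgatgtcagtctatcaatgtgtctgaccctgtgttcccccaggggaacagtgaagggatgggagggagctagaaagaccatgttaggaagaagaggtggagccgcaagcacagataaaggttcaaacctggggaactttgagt
Tpm1: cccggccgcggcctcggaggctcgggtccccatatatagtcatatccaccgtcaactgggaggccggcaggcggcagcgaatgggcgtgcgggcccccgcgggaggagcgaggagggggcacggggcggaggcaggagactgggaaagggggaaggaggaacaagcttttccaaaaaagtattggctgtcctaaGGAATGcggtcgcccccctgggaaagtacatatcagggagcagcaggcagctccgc
Tnnt1 held TATAAA at position -30 from the start, and Tnni1 held TATTTTTA at position -44. GGAATG stood at position -58 in Tnnc1, a gene that was high in type I fibres, and at position -56 in Tpm1, a gene that was high in type IIb fibres. The Tpm3 window, and those of Tnnc2 and Tpm2, matched none of these 3 motifs. In all 32851 windows of the table TATAAA was found in 13.6%, CATTCC in 14.7% and TAAAAATA in 2.72%, on either strand. The E-box CANNTG, searched as well and not marked, was in each of the members' 9 windows and in 72.3% of all windows. No match overlaps another in these windows, and a match describes the letters only.

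The first comparison set type I against type IIb fibres. The slow isoforms Tnnt1, Tnni1, Tnnc1 and Tpm3 reached at least 1456.3 FPKM (fragments scaled by gene length and library total, the level the authors deposited) in every type I library and at most 44.6 FPKM in any type IIb library. The fast isoforms Tnnt3, Tnni2 and Tpm1 were the other way round, though never at 0 in type I fibres, and the levels of Tpm2 overlapped between them. Of the 8 members tested in trained mice, 4 (Tnnt1, Tnni1, Tnnc1, Tpm3) were higher in type I fibres and 1 (Tpm1) was lower in the quasi-likelihood test of edgeR with p-values adjusted by Benjamini-Hochberg (threshold 0.05), where 0.536% of all 11747 genes tested were called (0.238% higher, 0.298% lower). In untrained mice the same test called the same 4 genes higher and Tpm1 lower, against 0.46% of all genes (0.255% higher, 0.204% lower). Tnnt3 and Tnni2 were not called in either. The libraries of the fibre types did not overlap for 7 of the 8 members, all but Tpm2, in trained mice, where 10.5% of all genes did not overlap (6.72% higher, 3.76% lower), and likewise in untrained mice, where 27.5% did not (22.6% higher, 4.89% lower). The median log2 fold change of the 8 members was 5.21 in trained and 4.63 in untrained mice, beside 0.21 and 0.85 over all genes tested, and it mixes slow members that were higher with fast members that were lower.

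These calls moved with single libraries, each of which enters the spread that the test estimates. In trained mice the number of members called was 1 without type I trained library 1 or 2 or type IIb trained library 2, and 2 without type I trained library 3 or type I untrained library 2. It was 3 without type I untrained library 1 or 3, type IIb trained library 1 or type IIb untrained library 3, then 4 without type IIb trained library 3 or type IIb untrained library 2, and 5 without type IIb untrained library 1. In untrained mice 0 members were called without type I trained library 1 or 2 or type I untrained library 2 or 3. With 1 other library left out, the count was 1 without type I trained library 3, type I untrained library 1 or type IIb trained or untrained library 2, then 2 without type IIb untrained library 3, and 4 without type IIb trained library 1 or 3 or type IIb untrained library 1. The calls over all genes moved as well in these fits, from 29 to 77 in trained and from 22 to 63 in untrained mice. With all libraries they were 63 and 54. The direction did not turn for any of the 7 members other than Tpm2 in any of 318 values, from 23 alternative settings and both comparisons. Since the libraries of these 7 did not overlap, the settings that leave out libraries could not turn it. The DESeq2 values of Tnnt3 and Tnnc1, which had no adjusted p, are not among the 318.

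**Figure D1:**
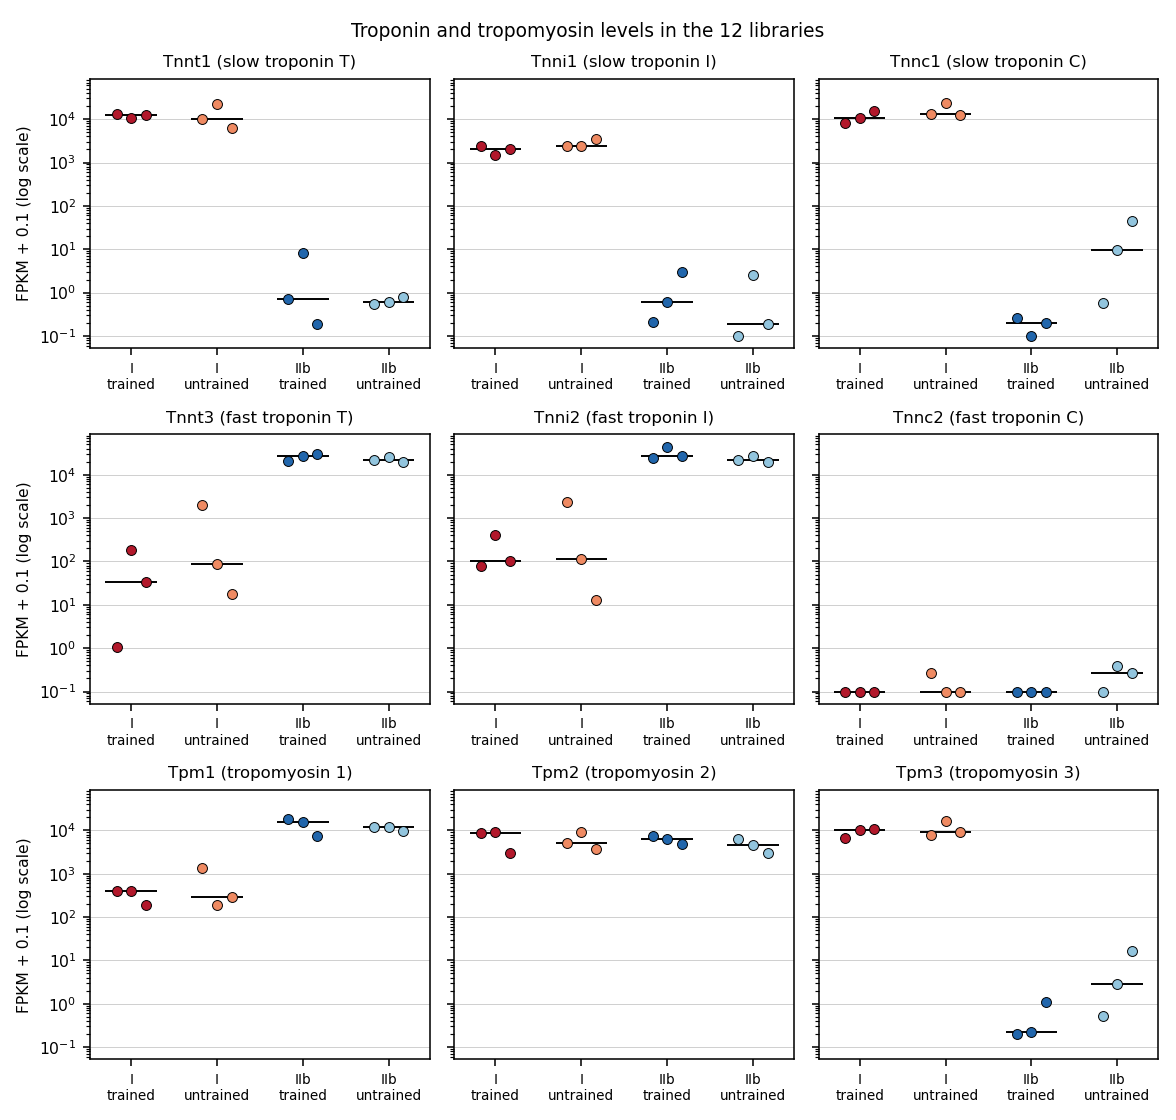
Level of each of the 9 genes in each of the 12 libraries, as FPKM plus 0.1 on a log axis, by group (red, type I trained, orange, type I untrained, dark blue, type IIb trained, light blue, type IIb untrained). Each point is 1 library and the bar is the median of the 3. The slow members in the upper row and Tpm3 sit at or above 1456.3 FPKM in type I fibres, Tnnt3, Tnni2 and Tpm1 sit at or above 7532.3 FPKM in type IIb fibres, Tpm2 overlaps across the groups, and Tnnc2 stays at or under 0.279 FPKM.

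Slow troponin T is described first. Tnnt1 (ENSMUSG00000064179, chr7:4504570-4516382, minus strand), which ties the slow complex to tropomyosin, had 12910.3, 10862.9 and 12710.7 FPKM in type I trained libraries and 10117.1, 21953.4 and 6189.2 FPKM in type I untrained libraries. In type IIb fibres it had 4, 47 and 1 counts in trained and 3, 5 and 6 counts in untrained libraries, which comes to at most 8.28 FPKM. Every type I library was above every type IIb library by a wide gap, and the untrained type I libraries spread more than the trained ones, with the highest 3.55 times the lowest against 1.19 times. Pooled over the libraries and scaled to effective library size, Tnnt1 was 3890-fold higher in type I fibres than in type IIb of trained mice (log2 fold change 11.49 ± 1.79 SE, adjusted p = 0.021, edgeR). In untrained mice it was 13300-fold higher (14.07 ± 1.96, adjusted p = 0.0143).

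Slow troponin I ran lower than its partners. Tnni1 (ENSMUSG00000026418, chr1:135779434-135810989, plus strand), the slow inhibitory subunit, had 2400.8, 1456.3 and 1997.0 FPKM in type I trained libraries and 2402.7, 2407.9 and 3395.2 FPKM in type I untrained libraries. Type IIb trained libraries had 1, 4 and 42 counts and type IIb untrained libraries 0, 34 and 1 counts, at most 2.85 FPKM. The 6 type I libraries lay within a 2.33-fold range and none came near a type IIb library. The difference was 937-fold in trained mice (log2 fold change 10.45 ± 1.77 SE, adjusted p = 0.0216, edgeR) and 1870-fold in untrained mice (11.01 ± 1.81, adjusted p = 0.0196).

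Slow troponin C was among the highest of the 9 genes in type I fibres. Tnnc1 (ENSMUSG00000091898, chr14:31208312-31211729, plus strand), the calcium sensor of slow and cardiac muscle, had 8068.5, 10673.6 and 15540.2 FPKM in type I trained libraries and 12829.6, 23298.2 and 12725.4 FPKM in type I untrained libraries. Type IIb trained libraries held 1, 0 and 1 counts, and type IIb untrained libraries 3, 90 and 352 counts (0.472, 9.54 and 44.6 FPKM). No type IIb library came near the type I libraries, but among type IIb fibres the untrained libraries were all above the trained ones. In trained mice the ratio of type I to type IIb was 91500, against 2 counts, with a 95% counting interval from 25300 to 755000 (log2 fold change 16.39 ± 1.88 SE, adjusted p = 0.00178, edgeR). In untrained mice it was 536-fold above type IIb (9.33 ± 1.45, adjusted p = 0.0186).

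Fast troponin T and I were high in all 6 type IIb libraries and spread widely in type I fibres. Tnnt3 (ENSMUSG00000061723, chr7:142498836-142516009, plus strand), the fast anchoring subunit, had 0.973, 186.7 and 34.1 FPKM in type I trained and 1989.2, 85.1 and 17.5 FPKM in type I untrained libraries. Type IIb libraries had 20573.1, 27278.1 and 30166.5 FPKM when trained and 21441.9, 25031.1 and 19491.7 FPKM when untrained. The type IIb libraries lay within a 1.55-fold range, while type I libraries ran from 8 to 19781 counts, highest in type I untrained library 1. Tnnt3 was 531-fold lower in type I fibres than in type IIb of trained mice (log2 fold change -8.65 ± 2.41 SE, adjusted p = 0.42, edgeR) and 68.7-fold lower in untrained mice (-5.62 ± 2.11, adjusted p = 0.233), and neither passed. On log2(FPKM + 1) with limma both passed (adjusted p = 0.000795 and 0.0154), as they did with a pseudocount of 0.1.

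Tnni2 (ENSMUSG00000031097, chr7:142441808-142444410, plus strand), the fast inhibitory subunit, had 80.3, 417.9 and 102.0 FPKM in type I trained libraries and 2340.8, 112.0 and 12.6 FPKM in type I untrained libraries. In type IIb fibres it had 24008.9, 44367.6 and 27375.1 FPKM in trained and 21659.9, 26670.0 and 19738.8 FPKM in untrained libraries. The groups did not overlap, and library 1 of the type I untrained group was again the highest of the type I libraries. The pooled difference was 225-fold lower in type I fibres of trained mice (log2 fold change -7.56 ± 1.91 SE, adjusted p = 0.294, edgeR) and 60.6-fold lower in untrained mice (-5.43 ± 1.73, adjusted p = 0.23), without a call. DESeq2 called both (adjusted p = 5.65e-06 and 0.00621), but it gave no adjusted p for Tnnt3 and Tnnc1 in either fibre-type comparison.

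Fast troponin C was all but missing from the counts. Tnnc2 (ENSMUSG00000017300, chr2:164777161-164779967, minus strand), the calcium sensor of fast fibres, had 4 counts in all 12 libraries together: 0 in each type I trained library, 1, 0 and 0 in type I untrained, 0 in each type IIb trained and 0, 2 and 1 in type IIb untrained libraries. A count of 0 allows up to 3 counts, which is 0.241 to 0.751 FPKM depending on the library and covers counting error only. No library group was high, so Tnnc2 did not pass the filter on low counts, was not tested and gets no fold. Of its 800 annotated exon bases, 592 (74.0%) lie over Ube2c, a ubiquitin-conjugating enzyme gene on the opposite strand, which itself had 0 to 165 counts per library. The libraries keep no strand, and how the authors counted reads over both genes is not given in the sources used here, so the counts do not give the level of Tnnc2. The exons of the other 8 members lie over no other gene.

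To show how the sequences of the troponin C pair differ, aligned coding stretches of 120 bases from the GENCODE M21 transcripts follow, Tnnc1 from coding base 99 to 218 and Tnnc2 from coding base 96 to 215. Capitals mark the 34 positions where they differ.
Tnnc1: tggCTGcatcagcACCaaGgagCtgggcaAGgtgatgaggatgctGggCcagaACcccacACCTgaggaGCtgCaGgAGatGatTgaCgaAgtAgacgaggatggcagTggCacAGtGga
Tnnc2: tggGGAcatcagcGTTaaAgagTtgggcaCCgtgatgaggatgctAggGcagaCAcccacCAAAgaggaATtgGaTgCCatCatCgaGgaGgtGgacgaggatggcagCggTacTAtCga
Over the aligned coding sequences, the pair was identical at 68.1% of positions, and its longest exact shared run was 21 bases. Tnni1 and Tnni2 were identical at 67.4% with a longest run of 22 bases, and Tnnt1 and Tnnt3 at 67.8% with 16 bases. Among tropomyosins, Tpm1 and Tpm3 were identical at 80.4%, Tpm1 and Tpm2 at 78.5% and Tpm2 and Tpm3 at 78.3%, with longest runs of 23, 35 and 17 bases. The retrogene Tpm3-rs7 shares a run of 617 bases with Tpm3, so reads of these 2 genes can be exchanged. It had 82 to 401 counts in type I and 0 to 3 counts in type IIb libraries, far below the 65322 to 225826 counts of Tpm3 in type I libraries.

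Tropomyosin 3 and tropomyosin 1 took opposite sides. Tpm3 (ENSMUSG00000027940, chr3:90072649-90100902, plus strand), the slow alpha chain, had 6786.9, 10131.2 and 10884.4 FPKM in type I trained libraries and 7902.6, 16104.0 and 9098.4 FPKM in type I untrained libraries. Type IIb trained libraries had 1, 1 and 15 counts and type IIb untrained libraries 4, 40 and 194 counts, at most 16.2 FPKM. All type I libraries stood above all type IIb libraries, and the highest type IIb value was in untrained library 3, as for Tnnc1. Tpm3 was 13000-fold above its type IIb level in type I fibres of trained mice (log2 fold change 14.09 ± 1.74 SE, adjusted p = 0.00363, edgeR) and 1040-fold higher in untrained mice (10.27 ± 1.52, adjusted p = 0.0172).

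Tpm1 (ENSMUSG00000032366, chr9:67022590-67049406, minus strand), the fast alpha chain, had 392.0, 394.1 and 191.8 FPKM in type I trained libraries and 1389.7, 186.1 and 297.1 FPKM in type I untrained libraries. In type IIb fibres it had 18487.4, 15481.4 and 7532.3 FPKM in trained and 12255.4, 11970.1 and 9417.4 FPKM in untrained libraries. Unlike the slow members in type IIb fibres, Tpm1 kept at least 3513 counts in every library of the fibre type where it was low. It was 57.2-fold lower in type I fibres than in type IIb of trained mice (log2 fold change -5.66 ± 0.79 SE, adjusted p = 0.00363, edgeR) and 32.9-fold lower in untrained mice (-4.79 ± 0.76, adjusted p = 0.0128).

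Tropomyosin 2 overlapped between the fibre types. Tpm2 (ENSMUSG00000028464, chr4:43514711-43523765, minus strand), the beta chain, had 8501.5, 9151.1 and 3030.3 FPKM in type I trained and 5033.3, 9088.6 and 3767.6 FPKM in type I untrained libraries. Type IIb libraries had 7531.3, 6240.1 and 4759.4 FPKM when trained and 6241.4, 4634.3 and 2976.1 FPKM when untrained. The groups overlapped throughout, and the 12 libraries ran from 2976.1 to 9151.1 FPKM. Set against type IIb, the type I log2 fold change was -0.04 in trained mice (95% interval -1.11 to 1.04) and -0.06 in untrained mice (-1.13 to 1.01), with adjusted p = 1 and 0.993 in edgeR. Its sign turned in 15 of 46 values over the alternative settings, so no direction is given.

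**Figure D2:**
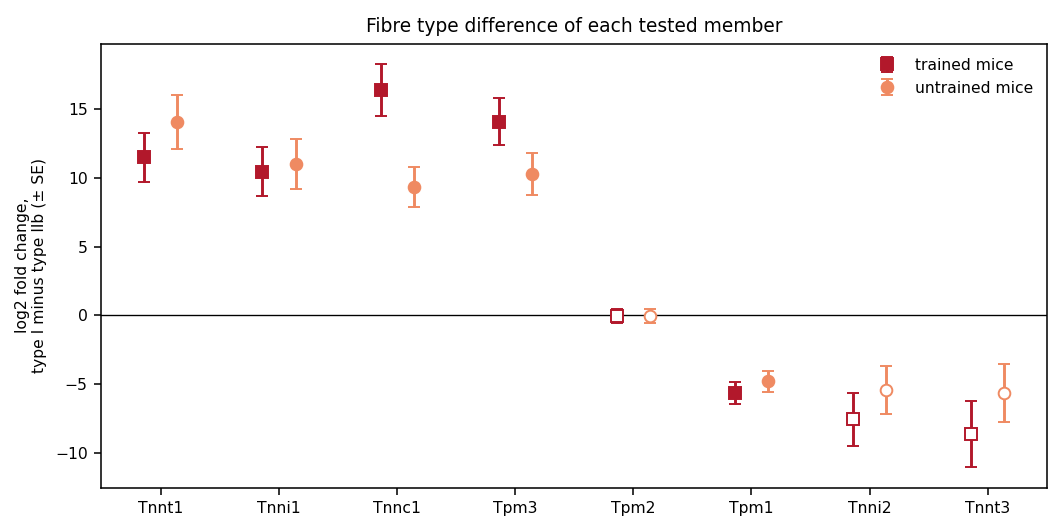
Difference between type I and type IIb fibres for the 8 tested genes, as edgeR's log2 fold change with type I on top (vertical axis, bars ± SE), in trained mice (red squares) and untrained mice (orange circles). Filled symbols passed an adjusted p of 0.05 and open symbols did not. Tnnt1, Tnni1, Tnnc1 and Tpm3 lie between 9.33 and 16.39, Tpm2 lies at -0.04 and -0.06, and Tpm1, Tnni2 and Tnnt3 lie between -8.65 and -4.79.

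In order of mean level in type I trained fibres, Tnnt1 (12161.3 ± 1128.9 FPKM, SD, n = 3), Tnnc1 (11427.4 ± 3792.5), Tpm3 (9267.5 ± 2181.0) and Tpm2 (6894.3 ± 3362.0) came before Tnni1 (1951.4 ± 473.9), Tpm1 (326.0 ± 116.1), Tnni2 (200.1 ± 189.0) and Tnnt3 (73.9 ± 99.1). By these group SDs, the first 4 did not differ between neighbours beyond their spread, nor did the last 3, while Tnni1 stood apart from its neighbours on both sides. Within each type I trained library, though, Tnnc1 was above Tpm3 and Tnni2 above Tnnt3 (80.3, 417.9 and 102.0 against 0.973, 186.7 and 34.1 FPKM). The other neighbours among these changed places between libraries. In type I untrained fibres the order was Tnnc1 (16284.4 ± 6074.4), Tnnt1 (12753.2 ± 8206.1), Tpm3 (11035.0 ± 4430.4), Tpm2 (5963.2 ± 2779.7), Tnni1 (2735.3 ± 571.5), Tnni2 (821.8 ± 1316.4), Tnnt3 (697.2 ± 1119.4) and Tpm1 (624.3 ± 665.2). There too the libraries of Tnni1 did not overlap those of its neighbours, with the closest pair at 2402.7 FPKM for Tnni1 and 2340.8 FPKM for Tnni2. In type IIb fibres the order was Tnni2 (31917.2 ± 10912.9 FPKM trained, 22689.6 ± 3578.5 untrained), Tnnt3 (26005.9 ± 4921.6 and 21988.2 ± 2809.8), Tpm1 (13833.7 ± 5660.4 and 11214.3 ± 1562.7) and Tpm2 (6177.0 ± 1387.0 and 4617.3 ± 1632.7). Tnni2 and Tnnt3 did not differ beyond their group SDs there, and the other 5 members averaged at most 18.2 FPKM. Library by library, Tnni2 was above Tnnt3 in each type IIb untrained library, but not in type IIb trained library 3.

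The isoform shares show how complete the switch was within each family. Tnnt1 made up 99.3% ± 0.907 of troponin T FPKM in type I trained and 94.3% ± 9.27 in type I untrained libraries (SD, n = 3), with the lowest share, 83.6%, in type I untrained library 1. In type IIb libraries it made up 0.000307% to 0.0304%. Tnni1 made up 89.9% ± 10.6 of troponin I in type I trained libraries, from 77.7% to 96.8%, and 82.0% ± 27.2 in type I untrained libraries, from 50.7% to 99.6%. In type IIb libraries its share was at most 0.0104%. On FPKM, the slow share was lower in troponin I than in troponin T in each of the 6 type I libraries. The gap was least in untrained library 3, at 99.6% for Tnni1 and 99.7% for Tnnt1, and by counts both were 99.7% there. The switch of tropomyosin was a change of partner beside Tpm2: Tpm3 took 57.3% ± 17.7 and 62.6% ± 6.99 of tropomyosin FPKM in type I trained and untrained libraries, and Tpm1 took 67.9% ± 5.72 and 71.4% ± 4.83 in type IIb trained and untrained libraries. Tpm2 took 40.7% ± 17.1 in type I trained, 33.2% ± 3.97 in type I untrained, 32.1% ± 5.72 in type IIb trained and 28.5% ± 4.88 in type IIb untrained libraries.

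**Figure D3:**
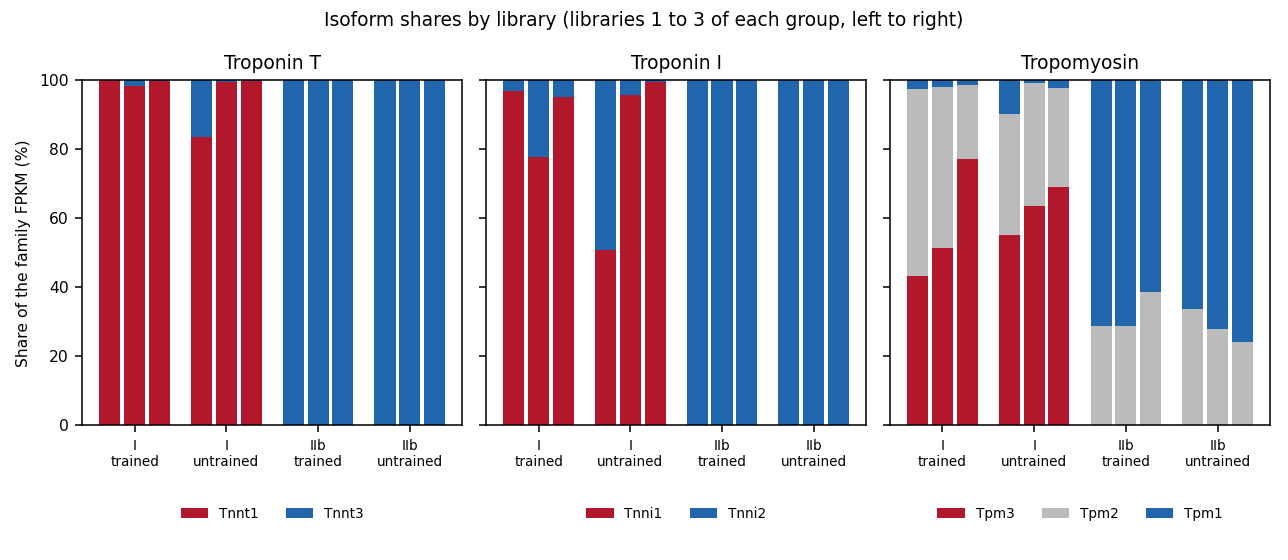
Share of each isoform in the summed FPKM of troponin T, troponin I and tropomyosin (vertical axis, percent), with 1 stacked bar per library, libraries 1 to 3 from left to right in each group. Slow isoforms (red) fill nearly all of troponin T in type I fibres and leave a larger rest of Tnni2 (blue) in troponin I, where Tnni1 has 50.7% in type I untrained library 1, and Tpm2 (grey) keeps a part of tropomyosin in every library.

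Summed over isoforms, troponin T and troponin I averaged less in type I fibres, compared with type IIb. Troponin I did not overlap between the fibre types, and tropomyosin did. Troponin T overlapped through type I untrained library 2, at 22038.4 FPKM beside 19492.4 to 30166.5 FPKM in type IIb libraries. Troponin T summed to 12235.2 ± 1030.2 FPKM in type I trained, 13450.4 ± 8001.0 in type I untrained, 26008.8 ± 4922.3 in type IIb trained and 21988.8 ± 2809.7 in type IIb untrained libraries (SD, n = 3). Troponin I summed to 2151.4 ± 306.8, 3557.1 ± 1119.3, 31918.4 ± 10912.6 and 22690.4 ± 3579.8 FPKM in the same groups. Tropomyosin summed to 16487.7 ± 2871.3, 17622.5 ± 6742.2, 20011.0 ± 7021.1 and 15838.0 ± 3115.8 FPKM. Per library, the ratio of troponin I to troponin T lay between 0.165 and 0.192 in type I trained, between 0.114 and 0.549 in type I untrained, between 0.908 and 1.63 in type IIb trained and between 1.01 and 1.07 in type IIb untrained libraries. Every type I library was below every type IIb library in this ratio, which rests on the gene lengths in the authors' table (964 bases for Tnni1 and 706 for Tnnt1, where the annotated exons merge to 3600 and 2204 bases). Troponin C to troponin T lay between 0.625 and 1.22 in type I trained and between 1.06 and 2.05 in type I untrained libraries. In type IIb libraries troponin C summed to at most 44.8 FPKM, where the counts do not give the level of Tnnc2.

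**Figure D4:**
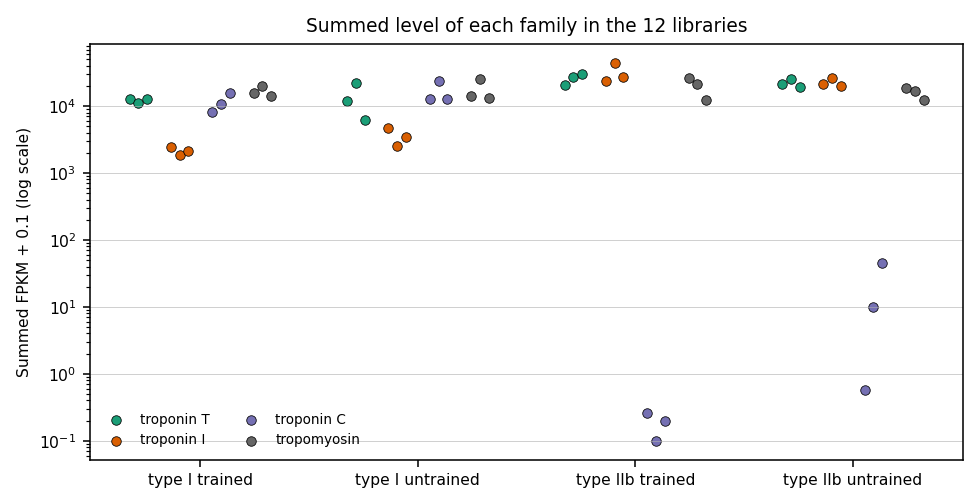
Summed FPKM of each family (plus 0.1, log axis) in each of the 12 libraries, by group. Each point is 1 library. Troponin I (orange) lies below the other families in type I fibres, at 1874.2 to 4743.5 FPKM, and level with troponin T (green) in type IIb fibres, where troponin C (purple) is at or under 44.8 FPKM.

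The isoforms of the other fibre type were not spread evenly. In type I fibres, the counts of Tnnt3, Tnni2 and Tpm1 were 8, 508 and 5463 in trained library 1, then 1603, 2763 and 5737 in trained library 2, and 403, 927 and 3840 in trained library 3. Among untrained type I libraries they were 19781, 17925 and 23434 in library 1, then 947, 960 and 3513 in library 2, and 371, 206 and 10677 in library 3. All 3 fast members were highest in untrained library 1, the library with Myh2 and Myh1 at 10.5% and 8.92% of myosin counts and with the highest endothelial and erythroid sums. Trained library 2, second for Tnnt3 and Tnni2, had 8.04% Myh1. The part of these other fibre and cell types in the levels was not tested. In type IIb libraries the slow members were highest in different libraries: Tnnt1 in trained library 2 (47 counts), Tnni1 in trained library 3 (42 counts), and Tnnc1 and Tpm3 in untrained library 3 (352 and 194 counts). Myh7 had 0 counts in those libraries except type IIb trained library 3, where it had 1.

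**Figure D5:**
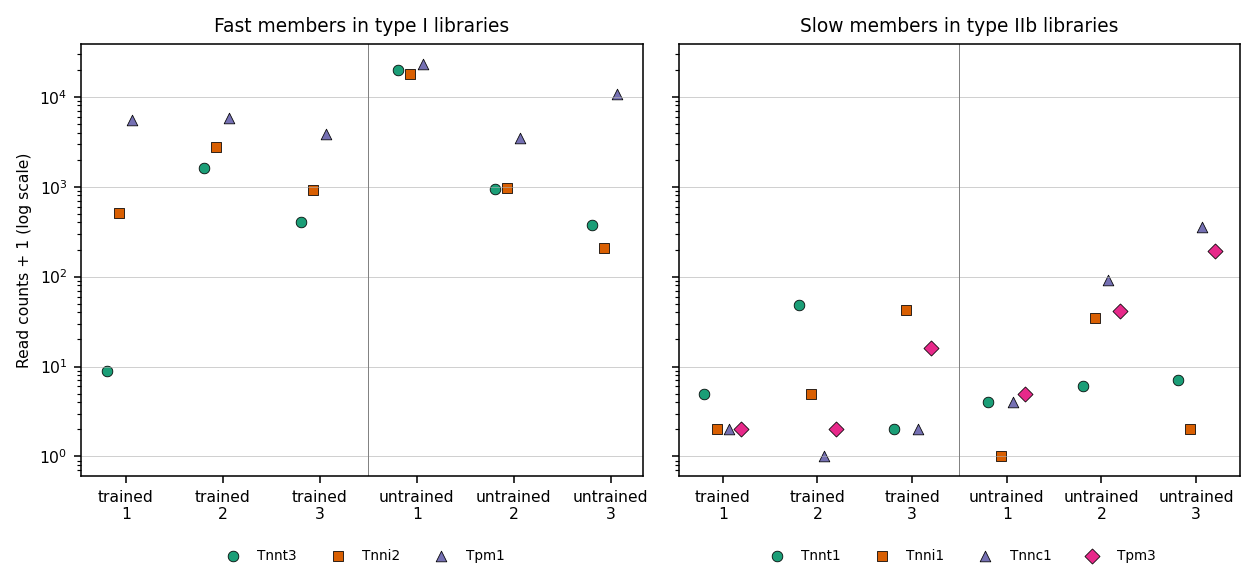
Read counts plus 1 (log axis) of the fast members in the 6 type I libraries and of the slow members in the 6 type IIb libraries, trained libraries left and untrained right in each panel. The fast members of type I untrained library 1 stand highest, at 17925 to 23434 counts, and the slow members of type IIb fibres stay at or under 352 counts, with different members highest in different libraries.

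The second comparison asked what endurance training did within a fibre type. In type I fibres, 0 of the 8 tested members and 0% of the 11747 genes were called in edgeR. No member reached even an unadjusted p under 0.05, as 345 of all genes did, and limma-voom also called 0 members, beside 9 of all genes. DESeq2 called 59 of all genes and 0 members, but it gave no adjusted p for Tnnt3 and Tnnc1. Trained and untrained type I libraries overlapped for all 8 members, where 11.6% of all genes did not overlap (2.81% higher, 8.82% lower). The log2 fold changes of trained over untrained were 0.19 ± 1.15 SE for Tnnt1, -0.08 ± 1.18 for Tnni1, -0.3 ± 1.01 for Tnnc1 and 0.01 ± 1.02 for Tpm3. Of the other members, Tpm2 had 0.66 ± 0.51, Tpm1 -0.35 ± 0.65, Tnni2 -1.42 ± 1.46 and Tnnt3 -2.61 ± 1.84, each with adjusted p = 1. The 95% intervals were wide, from -0.42 to 1.73 for Tpm2 and from -6.8 to 1.59 for Tnnt3, so changes of several fold were not detectable at this spread. The median of the 8 members was -0.19, beside -0.28 over all genes. For Tnnt3, Tnni2 and Tpm1 the sign rested on type I untrained library 1: without it their log2 fold changes were 0.87, 1.99 and 0.88.

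In type IIb fibres, training again left 0 of the 8 members and 0% of all genes called by edgeR, with 965 genes at an unadjusted p under 0.05. DESeq2 and limma-voom called 0 members as well, beside 364 and 1 of all genes, and DESeq2 gave no adjusted p for Tnnt3 and Tnnc1. The 4 abundant members overlapped between the groups: the log2 fold change of trained over untrained was 0.43 ± 1.73 SE for Tnnt3, 0.72 ± 1.44 for Tnni2, 0.53 ± 0.65 for Tpm1 and 0.63 ± 0.51 for Tpm2. Tnnc1 and Tpm3, the traces of slow isoforms, had the lowest unadjusted p-values. Tnnc1 had 1, 0 and 1 counts in trained libraries and 3, 90 and 352 counts in untrained libraries, with no overlap. Of all genes, 4.75% did not overlap between these groups (2.82% higher, 1.93% lower). Its log2 fold change was -7.35 ± 1.47 SE, at an unadjusted p = 0.000426 that ranked 4 of 11747 genes and an adjusted p = 0.597 in edgeR. Tnnc1, Tnnt1 and Tnni1 passed the filter on low counts only through the type I libraries, where they are high. When only the type IIb libraries were fitted, these genes dropped out. Their p-values and ranks for training in type IIb fibres are therefore a description only. Tpm3 had 1, 1 and 15 counts in trained and 4, 40 and 194 counts in untrained libraries, which overlap, and a log2 fold change of -3.81 ± 1.19 SE (unadjusted p = 0.00888, adjusted p = 0.597). Both passed without the filter on low counts (adjusted p = 4.94e-16 and 2.55e-05, edgeR), and Tnnc1 also passed without type IIb untrained library 1 (4.72e-05) and without the 2 libraries with the fewest genes (0.00798).

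The other slow genes differed among themselves in the type IIb libraries. Tnnt1 had 4, 47 and 1 counts in trained and 3, 5 and 6 counts in untrained libraries (log2 fold change 2.77 ± 1.31 SE, adjusted p = 0.597, edgeR). Tnni1 had 1, 4 and 42 counts in trained and 0, 34 and 1 counts in untrained libraries (0.48 ± 1.24, adjusted p = 1). Myl2 and Myl3, the slow myosin light chains, had 0, 1 and 0 and 3, 1 and 4 counts in trained libraries, and 6, 5 and 8 and 3, 122 and 6 counts in untrained libraries. Myl2 was thus lower in trained libraries without overlap, as Tnnc1 was, while Myl3, Tnnt1 and Tnni1 overlapped. The list of 5 type I fibre markers that holds Myl2 and Myl3 overlapped as well. It summed to 0.422, 9.47 and 22.8 CPM in trained and to 1.34, 12.0 and 1.58 CPM in untrained type IIb libraries. Untrained library 2 was thus high for Tnnc1, Tpm3, Tnni1 and Myl3, and untrained library 3 for Tnnc1 and Tpm3, with at most 8 counts of the other slow genes named. The level of 44.6 FPKM for Tnnc1 in that library lay far under the lowest type I level of 8068.5 FPKM.

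Whether training acted differently in the fibre types was tested as an interaction. No member and 0% of all genes were called in edgeR, with 2 members (Tnnc1 and Tpm3) and 1050 genes at an unadjusted p under 0.05, and limma-voom called 0 members, beside 3 of all genes. DESeq2 called 390 of all genes and not Tpm3, and it gave no adjusted p for Tnnc1. The difference of the training effects, type I minus type IIb, was 7.06 ± 1.74 SE on the log2 scale for Tnnc1 (adjusted p = 0.418) and 3.82 ± 1.54 for Tpm3 (adjusted p = 0.499). In type I fibres neither gene moved by more than its SE with training, and the type IIb counts are the low ones given above. Tnnc1 passed the filter only through its type I libraries. Without the filter they passed (adjusted p = 9.53e-10 and 0.00825). Tnnc1 also passed without type IIb untrained library 1 (0.00114) and without the 2 libraries with the fewest genes (0.0396).

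A list of 23 other thin filament genes, among them actins, nebulin, tropomodulins, leiomodins, capping proteins and alpha-actinins, gives the surroundings of the switch. Of the 21 that passed the filter, 2 were lower and 0 higher between type I and type IIb fibres, in trained as in untrained mice, with medians of 0.14 and 0.38 (0.21 and 0.85 over all genes) on the log2 scale. The 2 were Actc1, the cardiac alpha-actin, and Actn3, the alpha-actinin of fast fibres. Actn3 averaged 7.08 ± 7.34 FPKM in type I trained and 2383.9 ± 1469.7 FPKM in type IIb trained libraries (SD, n = 3). In untrained mice it averaged 2.17 ± 1.94 FPKM in type I and 905.6 ± 288.3 FPKM in type IIb libraries. Its log2 fold change between the fibre types was -9.1 ± 1.59 SE in trained (adjusted p = 0.0302, edgeR) and -9.35 ± 1.6 in untrained mice (adjusted p = 0.0304). Actc1 averaged 30.4 ± 38.9 FPKM in type I trained and 330.4 ± 211.9 FPKM in type IIb trained libraries, with log2 fold changes of -4.28 ± 0.94 SE in trained (adjusted p = 0.043, edgeR) and -5.12 ± 0.98 in untrained mice (adjusted p = 0.0186). In untrained mice Actc1 averaged 95.7 ± 93.2 FPKM in type I and 2155.2 ± 1599.1 FPKM in type IIb libraries. Acta1, the skeletal alpha-actin of the thin filament, had log2 fold changes of -0.62 ± 0.31 SE in trained and -0.16 ± 0.31 in untrained mice, without a call. Also without a call, 3 genes did not overlap between the fibre types in both trained and untrained mice. Lmod2 (6.05 ± 1.63 SE and 7.65 ± 1.75) and Actn2 (2.75 ± 2.09 and 4.15 ± 2.23) were higher in type I fibres. Capzb was lower (-1.26 ± 0.67 and -1.16 ± 0.66). Others were apart in 1 of the comparisons only, without a call. In trained mice this was Klhl41, higher in type I fibres. In untrained mice Nrap, Tpm4, Tnnt2, Klhl40 and Xirp1 were higher in type I fibres without overlap, and Tmod4 and Capza2 lower. The called Actc1 and Actn3 did not overlap in either comparison. Of all genes, 10.5% did not overlap in trained and 27.5% in untrained mice. Training called 0 of the 21 in either fibre type.

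Relatives of the members from other tissues were low. Tnnt2, the cardiac troponin T, had 0 to 48.3 FPKM in type I and 0 to 9.08 FPKM in type IIb libraries, against at least 6189.2 FPKM of Tnnt1 in type I. Tnni3, the cardiac troponin I, had 32 counts in all 12 libraries and was not tested. Tpm4, a tropomyosin of non-muscle cells, had 0.784 FPKM at most in type I trained and 1.21 to 153.9 FPKM in type I untrained libraries, and 16.2 FPKM in type IIb trained library 3 with 0 counts in the other 5 type IIb libraries. The libraries with Tpm4 above 10 FPKM were the same 3 that had the highest endothelial sums, and the part of those cells in its level was not tested. Neither Tnnt2 nor Tpm4 was called in any comparison.

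For each tested member, the 2 other genes whose log2(CPM + 1) correlated best over the 12 libraries were named by Pearson r, as a description only, since the fibre types form 2 clusters that set most of r. Tnnt1 was closest to Myoz2 (r = 0.991), a Z-disc protein of slow fibres, and Esrrb (0.99), a nuclear receptor. Tnni1 was closest to Myl3 and Cyfip2 (0.99 each), Tnnc1 to Myl12a (0.981) and Myl3 (0.977), and Tpm3 to Tpm3-rs7 (0.987), which shares its sequence, and Myl2 (0.986). Of the fast members, Tnnt3 was closest to the metabolic enzymes Gpd1 (0.973) and Ldha (0.961), Tnni2 to Myoz1 (0.975), found at the Z-disc of fast fibres, and Gm8767 (0.967), and Tpm1 to Mylpf and Myoz1 (0.975 each). Within type I libraries alone, Tnnt3 still had r = 0.93 with Gpd1 and 0.94 with Ldha, and within type IIb libraries 0.16 and 0.02. Tpm2, whose libraries overlapped between fibre types, was closest to Gm13340 (0.924) and the mitochondrial ribosomal RNA gene mt-Rnr2 (0.917). With mt-Rnr2 it had r = 0.97 within type I and 0.65 within type IIb libraries, over 6 libraries each.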

How the data were processed

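RNA sequencing libraries of 12 myofiber samples were made with the SMART-Seq HT and Nextera XT kits, per the labels' protocols. Per the submitters' processing notes, TopHat2 and build mm10 were used. The counting program, its handling of overlapping genes and the annotation release were not given in the sources used here. Deposited by the authors were whole-number read counts per gene, not normalized, and FPKM values. Recomputed from counts, gene lengths and library totals, 94.5% of the nonzero deposited FPKM values came out within 0.1% (largest deviation 0.361%), and 0 per-sample columns were left unused. Of the 56162 features, 55401 carry Ensembl identifiers, and the rest carry the authors' own and stayed in library sizes and tests.

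Counts were tested with edgeR 4.0.16 (TMM, filterByExpr with a minimum of 10 counts and 15 in total, robust quasi-likelihood fit of group means over all 12 libraries) in 5 contrasts, with Benjamini-Hochberg adjustment over all 11747 genes and a threshold of 0.05. SE, an approximation, comes from the log2 fold change and its F statistic (their ratio after taking the root of F), and 95% intervals use its t quantile. Pooled folds use effective library sizes. Changes that involve a group near 0 counts depend on edgeR's prior count. Levels are compared between genes on FPKM alone. DESeq2 1.42.0 and limma 3.58.1 (R 4.3.3) were alternatives. As a check of the code, the filter, fit and test were run on simulated counts with the same dispersion for all genes. That run does not speak to the reliability of the calls in these libraries. Library totals of 8026397 to 24995288 counts set the precision, and reads carry no molecular identifiers, so counting intervals and floors cover counting error only.

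Named were all 9 members, listed thin filament genes called in a comparison (at most 8), cardiac and copy relatives, the 2 genes most like each member, and myosin heavy chain genes. Naming Acta1, Ube2c, Myl2, Myl3, Lmod2, Actn2, Capzb, Klhl41, Nrap, Klhl40, Xirp1, Tmod4 and Capza2 was decided after their values were seen. Marker lists for endothelial, mural, fibroblast, satellite, erythroid and cardiac muscle cells, and for type I fibres, were summed as CPM. The members and lists were chosen with earlier results of these data known. Replicate numbers were not treated as pairs.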

Additional observations from a re-analysis of the deposited data

How the results depend on the processing

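Between fibre types, the direction of Tnnt1, Tnni1, Tnnc1, Tpm3, Tnnt3, Tnni2 and Tpm1 was the same in 318 of 318 values over 23 settings. Settings that leave out libraries could not turn it, since the libraries of these genes did not overlap. The number of members called, 5 in each fibre-type comparison, was 1 to 5 in trained and 0 to 4 in untrained mice with 1 library left out. It was 7 and 7 (trained and untrained) with limma on log2 FPKM, at either pseudocount, and 7 in trained mice without the robust prior. It was 1 and 1 (trained and untrained) with limma-voom. Leaving out the 3 endothelial-high libraries kept only 1 library in the type I untrained group, so no count is given for that setting. For training in type IIb fibres and for the interaction, 0 members were called, 0 to 1 with 1 library left out, 2 and 2 without the filter on low counts, and 1 and 1 when the 2 libraries of fewest genes were left out. The cause of these moves was not tested. Over all genes, the fibre-type calls numbered 63 in trained and 54 in untrained mice, against 346 and 1031 with DESeq2, 130 and 1865 with limma-voom and 81 and 123 without the filter. They ran from 29 to 77 and from 22 to 63 with 1 library left out. Training in type IIb fibres and the interaction had 0 and 0 calls over all genes. These were 0 to 2 in each with 1 library left out, and 9 and 26 without the filter.

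Same-numbered libraries of different groups had correlations of -0.04 to 0.18 after centring each group. Differently numbered libraries were not compared, so these values cannot decide whether the numbers pair the libraries. With the replicate block, 4 members were called in trained mice and 3 in untrained mice, and Tnni1 turned to 0.15 for training in type I fibres.

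For training in type I fibres, log2 fold changes of several members turned sign. With RLE size factors, as with DESeq2, Tnnt1 was -0.04 and Tpm3 -0.24, and the median of all genes moved from -0.28 to -0.57, and from 0.85 to 1.17 between fibre types in untrained mice. Tpm3 was -0.04 without the filter and -0.21 on log2 FPKM with a pseudocount of 1 or 0.1, and Tnni2 was 0.01 with 0.1. In limma-voom Tnnc1 was 0.2 and Tpm2 -0.28, with Tpm1 at -0.53 for training in type IIb fibres. Without the 3 endothelial-high libraries, the type I untrained group was library 2 alone. In that setting Tnnt1 was -0.77, Tnnt3 0.09, Tnni2 1.1, Tpm1 1.01, Tpm2 -0.16 and Tpm3 -0.74, with Tnni1 at -1.22 in type IIb fibres. With 1 library left out, type I training values ran from -0.19 to 1.12 for Tnnt1, -5.46 to 0.87 for Tnnt3, -0.48 to 0.1 for Tnni1, -2.87 to 1.99 for Tnni2, -0.53 to 0.3 for Tnnc1, -0.77 to 0.88 for Tpm1 and -0.26 to 0.64 for Tpm3. In type IIb fibres they ran from -0.64 to 3.29 for Tnnt1 and -1.17 to 4.55 for Tnni1. For Tpm2 between fibre types they ran from -0.36 to 0.37 in trained and -0.85 to 0.19 in untrained mice. Tpm2 was also 0.07 in untrained mice with RLE or DESeq2, 0.03 and 0.33 (trained and untrained) on log2 FPKM, 0.14 and 0.13 when the libraries of fewest genes were left out, and 0.6 in untrained mice without the endothelial-high libraries. By counts, Tpm2 took 38.5% of tropomyosin in type I untrained libraries, against 33.2% by FPKM. Near 0 counts, 1 count is worth 0.04 to 0.125 CPM, which limits the slow members in type IIb fibres.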
